A study of Homo sapiens with 18 samples.

Results

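The 52 genes of DNA replication and mitosis described here were taken by name from the 58302 genes of the RNA-seq tables, and all 52 were found. They were divided by known function into 26 S-phase genes, which act in origin licensing, the replication fork, nucleotide supply and the G1/S transition, and 26 G2/M genes, which act in mitotic entry, spindle assembly and cytokinesis. RNA was measured in 3 lung cancer cell lines: EBC-1, which carries a MET amplification, and PC-9 and HCC827, which both carry an EGFR exon 19 deletion. In each line, cells made stable for an shRNA against SYK, a non-receptor tyrosine kinase (shSYK), were compared with cells of the same line that carry a negative control (nc), with 3 libraries per group and 18 in all. A lentivirus brought in the shRNA, and 1 shRNA clone was used, so that effects of SYK loss and effects of that clone cannot be told apart. The labels name no drug treatment. Nothing in the labels says that replicate libraries came from separate cultures, so p-values measure only the spread between these libraries, which may be technical.

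The cell cycle is driven by waves of transcription. In G1, E2F transcription factors are held by the retinoblastoma protein, and once released by cyclin E and CDK2 they switch on genes for origin licensing (ORC1, CDC6, CDT1 and the MCM helicase) and for DNA synthesis. Later, the MuvB complex with MYBL2 and FOXM1 turns on the G2/M genes, whose products (cyclin B, CDK1, Aurora and Polo-like kinases, kinesins) carry cells into and through mitosis. In RNA from a whole culture, fewer cells in a phase and less RNA per cell in that phase cannot be told apart.

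The promoters of both sets were searched for the elements through which these waves are known to act. Of the 52 genes, 41 were found in a RefSeq promoter table (GRCh38.p14, 250 bases before to 50 after the gene start, 27305 genes). An E2F site, searched on both strands as TTCCCGC or TTCGCGC or TTGCCGC or TTGGCGC, was in the promoters of 14 of the 21 S-phase genes (66.7%), 5 of the 20 G2/M genes (25%) and 13.1% of all promoters of the table. A cell cycle homology region (CHR), searched on both strands as TTTGAA or TTCGAA, was in 14 of the 20 G2/M genes (70%), 2 of the 21 S-phase genes and 16.6% of all promoters. A CCAAT box, CCAAT on either strand, was in 17 of the 20 G2/M genes, 13 of the 21 S-phase genes and 35.7% of all promoters. The forms of the E2F site can overlap on opposite strands. These are matches of letters and not measured binding. 3 S-phase promoters are shown with their E2F letters in capitals, since ORC1, MCM2 and E2F1 carry the S-phase results below. They lie at ORC1 (chr1:52404374-52404673, minus strand), MCM2 (chr3:127598161-127598460, plus strand) and E2F1 (chr20:33686336-33686635, minus strand), and each is written 5′ to 3′ on the strand of its gene.
ORC1: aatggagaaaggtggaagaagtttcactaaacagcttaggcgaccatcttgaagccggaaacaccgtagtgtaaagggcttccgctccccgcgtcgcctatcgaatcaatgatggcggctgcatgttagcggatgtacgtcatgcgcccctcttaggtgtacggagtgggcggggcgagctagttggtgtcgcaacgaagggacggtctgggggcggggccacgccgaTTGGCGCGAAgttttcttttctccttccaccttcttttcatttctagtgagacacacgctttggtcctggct
MCM2: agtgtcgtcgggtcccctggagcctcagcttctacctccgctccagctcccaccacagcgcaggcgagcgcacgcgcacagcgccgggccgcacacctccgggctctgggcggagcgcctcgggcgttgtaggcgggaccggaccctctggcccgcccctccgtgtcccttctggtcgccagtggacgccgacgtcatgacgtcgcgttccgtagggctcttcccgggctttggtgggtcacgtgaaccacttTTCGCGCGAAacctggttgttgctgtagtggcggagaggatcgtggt
E2F1: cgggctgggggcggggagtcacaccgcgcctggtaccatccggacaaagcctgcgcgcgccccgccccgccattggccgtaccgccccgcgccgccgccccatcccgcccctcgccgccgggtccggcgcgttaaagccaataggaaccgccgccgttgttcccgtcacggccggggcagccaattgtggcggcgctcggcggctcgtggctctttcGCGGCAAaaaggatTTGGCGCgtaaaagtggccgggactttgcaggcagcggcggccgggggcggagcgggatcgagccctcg

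CDK1, KIF11 and KIF23 were higher in shSYK cells of both EBC-1 and HCC827, though KIF11 only weakly in HCC827. Their promoters are shown as 3 G2/M examples, with the CHR letters in capitals. They lie at CDK1 (chr10:60778081-60778380, plus strand), KIF11 (chr10:92592880-92593179, plus strand) and KIF23 (chr15:69414099-69414398, plus strand).
CDK1: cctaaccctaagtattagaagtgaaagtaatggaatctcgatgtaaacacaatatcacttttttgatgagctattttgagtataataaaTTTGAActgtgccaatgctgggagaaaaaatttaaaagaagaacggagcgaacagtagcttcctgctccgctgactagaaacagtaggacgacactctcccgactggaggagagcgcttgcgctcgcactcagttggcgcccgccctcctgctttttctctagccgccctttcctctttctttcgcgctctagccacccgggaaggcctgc
KIF11: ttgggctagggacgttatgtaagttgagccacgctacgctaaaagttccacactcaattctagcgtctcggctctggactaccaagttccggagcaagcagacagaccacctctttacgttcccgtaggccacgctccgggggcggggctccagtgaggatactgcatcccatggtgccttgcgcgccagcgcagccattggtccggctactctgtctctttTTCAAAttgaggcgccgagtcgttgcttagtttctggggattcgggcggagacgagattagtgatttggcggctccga
KIF23: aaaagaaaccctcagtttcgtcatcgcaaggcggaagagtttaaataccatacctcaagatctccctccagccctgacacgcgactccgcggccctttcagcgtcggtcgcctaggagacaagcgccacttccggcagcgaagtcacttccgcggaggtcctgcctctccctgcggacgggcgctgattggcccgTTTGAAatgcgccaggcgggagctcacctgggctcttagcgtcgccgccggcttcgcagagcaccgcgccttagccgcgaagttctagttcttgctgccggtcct

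The values are FPKM as deposited, that is, reads scaled by gene length and by a denominator for each library. They were compared as log2(FPKM + 1) with limma, keeping genes whose FPKM averaged 1 or more across a line's 6 libraries, and a gene was called at a Benjamini-Hochberg adjusted p under 0.05 over all genes tested. A log2 fold change is shSYK minus nc on this scale, which understates the change of genes at low FPKM. Between 7920099 and 15729103 reads per library lay on genes. SYK itself fell in each line, to 52.3% of its nc level in EBC-1, to 32.1% in PC-9 and to 32.9% in HCC827 (limma adjusted p = 0.000271, 0.00733 and 0.000197). In PC-9, the reads of nc replicates 1 and 2 differed by a chi-square of 38.66 per degree of freedom, more than in any other pair of replicates. It was 14.31 for nc replicates 1 and 3 and 9.466 for nc replicates 2 and 3. The summed FPKM of 5 epithelial markers lay between 1137 and 4683 in every library. Markers of leukocytes summed to at most 1.67 FPKM and those of fibroblasts to at most 8.37 FPKM. Of 3 endothelial markers, PECAM1 reached 14.4 FPKM in PC-9, and the sum was 15 to 17.1 in nc and 6.62 to 7.91 in shSYK cells of that line.

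The members ranged widely in level. In nc cells of EBC-1, the S-phase genes had a median FPKM of 21.8, from CCNE2 (1.52) to MCM7 (442), and the G2/M genes a median of 13.8, from CENPE (0.738) to UBE2C (70.5). In HCC827 nc cells, the medians were 21.9 for S-phase and 16.4 for G2/M genes, with MCM7 (182) and CDC20 (223) highest. In PC-9 nc cells, the medians were 13.9 and 24.0, with TK1 (99.1) and CDC20 (133) highest. CCNE2 was below the filter in PC-9, at 0.306 FPKM in nc cells and with 7 reads in its lowest library, so 25 S-phase genes were tested there. All other members passed the filter in each line. The 3 tables were normalized separately, so levels are set side by side here as a description only.

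In EBC-1, the G2/M genes that were called all rose, and the called S-phase genes went both ways. Of 26 G2/M genes, 15 rose, none fell and 11 did not pass the test, while 23.1% of all genes tested rose and 21.6% fell. Of 26 S-phase genes, 10 rose (38.5%) and 6 fell (23.1%), so the share that fell was near that of all genes tested. The median log2 fold change was 0.45 over the G2/M genes and -0.02 over the S-phase genes, against 0.01 over all genes tested. The FPKM of the groups did not overlap for 18 genes of each set, a share of 69.2%, and for 56.9% of all genes tested. Scaling the libraries to an equal sum (TPM) raised the median of all genes in EBC-1 from 0.01 to 0.12 and gave 19 G2/M genes that rose and none that fell, and 11 S-phase genes that rose and 4 that fell, where 32.3% of all genes tested then rose and 15.3% fell. The fall of MCM2 and CDC6 in this line was lost with that scaling.

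Among the genes of mitotic entry, CCNA2, CCNB1, CCNB2, CDK1 and AURKA rose in EBC-1. CCNB1, the cyclin that activates CDK1 for mitosis, had an FPKM of 37.3, 34.4 and 39.6 in the nc libraries and 52.5, 57.7 and 52.9 in the shSYK libraries (log2 fold change 0.54, SE 0.0763, limma adjusted p = 0.00159). CDK1, its kinase partner, had 11.4, 13.2 and 11 FPKM in nc and 17.8, 19.3 and 18.2 in shSYK cells (0.60, SE 0.0823, limma adjusted p = 0.00146). All 3 shSYK libraries were above all 3 nc libraries for both genes. Other members of this module did not pass the test. PLK1, the Polo-like kinase of mitosis, was at 20.7, 16.5 and 21.6 FPKM in nc and at 25.3, 27.3 and 20.9 in shSYK cells, and the groups overlapped (0.31, SE 0.129, limma adjusted p = 0.0856). FOXM1, a transcription factor for G2/M genes, was at 40.1 to 49.2 FPKM in nc and 35.3 to 43.8 in shSYK cells, and CDC25C, a phosphatase that activates CDK1, at 3.00 to 3.53 and 2.59 to 2.89.

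On the log2(FPKM + 1) scale, the largest rises of G2/M genes in EBC-1 were in CENPF, KIF11 and CENPE. CENPF, a protein of the outer kinetochore, had 2.62, 3.77 and 3.00 FPKM in nc and 6.92, 7.11 and 7.58 in shSYK cells (log2 fold change 1.0, SE 0.108, limma adjusted p = 0.000596). KIF11, the kinesin that pushes spindle poles apart, went from 5.89, 7.44 and 6.75 to 13.5, 13 and 13.5 FPKM (0.90, SE 0.0859, limma adjusted p = 0.000374). CENPE, a kinetochore motor, was low, at 0.614, 1.01 and 0.592 FPKM in nc and 2.46, 1.82 and 2.30 in shSYK cells (0.88, SE 0.137, limma adjusted p = 0.00237). For these genes the shSYK mean was between 199% and 297% of the nc mean, and by that measure TTK, at 207%, was above KIF11. MKI67, the Ki-67 proliferation marker, was at 10.2, 13.7 and 11.9 FPKM in nc and at 20.6, 21.2 and 20.9 in shSYK cells (0.77, SE 0.102, limma adjusted p = 0.00125). TOP2A, the topoisomerase that untangles sister chromatids, had 21.6, 27.8 and 20.9 FPKM in nc and 36.3, 38.9 and 36.5 in shSYK cells (0.66, SE 0.109, limma adjusted p = 0.00298).

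Of the spindle checkpoint genes, BUB1, BUB1B, MAD2L1 and TTK rose in EBC-1. TTK, the checkpoint kinase also called MPS1, had 1.98 to 2.35 FPKM in nc and 3.83 to 5.19 in shSYK cells. CDC20, the activator of the anaphase-promoting complex that the checkpoint holds back, was at 57.1 to 74.4 FPKM in nc and 60.0 to 71.2 in shSYK cells, with overlap. AURKB, the kinase of the chromosomal passenger complex, was at 39.2 to 47.9 and 39.9 to 46.7 FPKM, and its partner BIRC5 (survivin) at 23.9 to 27.4 and 28.3 to 29.0. Among the motors and cytokinesis genes, KIF23, a kinesin of the central spindle, rose with KIF11. KIF20A, TPX2 and PRC1, which also act on the spindle, did not pass the test.

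The S-phase genes called in EBC-1 split within some of their modules. Of 10 licensing genes, ORC1, GMNN, MCM4 and MCM6 rose, CDC6, CDT1 and MCM2 fell, and MCM3, MCM5 and MCM7 did not pass the test. GMNN encodes geminin, the inhibitor of CDT1. It had 11.2, 12.2 and 12.0 FPKM in nc and 15.9, 15.9 and 16.8 in shSYK cells (log2 fold change 0.42, SE 0.0652, limma adjusted p = 0.00223). CDT1, which loads the MCM helicase, had 55.9, 47.7 and 54.8 FPKM in nc and 38.3, 40.9 and 29.7 in shSYK cells (-0.54, SE 0.125, limma adjusted p = 0.0115). So the inhibitor was higher and its target lower, with no overlap in either. ORC1, the largest subunit of the origin recognition complex, was at 7.88, 8.17 and 8 FPKM in nc and 10.9, 11 and 10.5 in shSYK cells (0.39, SE 0.0619, limma adjusted p = 0.00254). MCM2, a subunit of the helicase, was at 118, 96.6 and 125 FPKM in nc and 91.3, 93.0 and 77.5 in shSYK cells (-0.37, SE 0.114, limma adjusted p = 0.0341). The MCM2 call was lost when any of nc replicate 1, nc replicate 3, shSYK replicate 1 or shSYK replicate 3 was left out.

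The E2F genes of EBC-1 moved in opposite directions. E2F1, an activator of S-phase genes, fell from 85.0, 69.4 and 86.2 FPKM in nc to 57.9, 61.5 and 45.6 in shSYK cells (log2 fold change -0.54, SE 0.131, limma adjusted p = 0.0131). E2F2, a second activator, fell from 6.96, 5.63 and 6.62 to 3.92, 4.51 and 3.57 FPKM (-0.57, SE 0.103, limma adjusted p = 0.00421). E2F8, an atypical E2F that represses E2F targets, rose from 2.63, 3.25 and 2.33 to 3.91, 4.07 and 3.98 FPKM (0.42, SE 0.102, limma adjusted p = 0.0129). Without nc replicate 1, E2F1 was no longer called. Of the anchors of DNA synthesis, PCNA, the sliding clamp of DNA polymerases, was at 158 to 180 FPKM in nc and 155 to 167 in shSYK cells (limma adjusted p = 0.677). TYMS, which makes thymidylate, was at 16.2 to 17.5 and 14.6 to 16.2 FPKM (limma adjusted p = 0.153), and CCNE2, a cyclin E, at 1.29 to 1.84 and 1.65 to 2.26 (limma adjusted p = 0.15). RRM1 and RRM2, the subunits of ribonucleotide reductase, rose, as did CCNE1, CDC25A and GINS2, whereas CDC45, which completes the active helicase, fell. The count of S-phase genes that rose in EBC-1 was lower with some libraries left out. It was 6 without nc replicate 3, 5 without shSYK replicate 1 and 5 without shSYK replicate 2. Of all genes tested, 16.8%, 17.4% and 17.4% rose in these fits, against 23.1% with no library left out. The genes not called in 1 or more of these fits were CCNE1, CDC25A, GINS2, MCM6 and RRM2, and no S-phase gene was newly called.

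In HCC827, the S-phase genes fell and the G2/M genes rose. Of 26 S-phase genes, 15 fell, none rose and 11 did not pass the test, while 20.7% of all genes tested fell and 17.2% rose. Of 26 G2/M genes, 13 rose and none fell. The median log2 fold change was -0.30 over the S-phase genes and 0.19 over the G2/M genes, against -0.01 over all genes tested. The FPKM of the groups did not overlap for 16 genes of each set (61.5%) and for 52.3% of all genes tested. Leaving out shSYK replicate 1 lowered the number of G2/M genes that rose to 7, and leaving out shSYK replicate 2 lowered it to 8. The share of all genes tested that rose was lower as well, at 14.0% and 12.1%. The genes not called in 1 or both of these fits were AURKA, BIRC5, CENPF, KIF11, MAD2L1 and UBE2C. With each library left out in turn, between 13 and 14 S-phase genes fell, and between 15.7% and 18.7% of all genes tested.

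Of the 10 licensing genes, 9 fell in HCC827. ORC1 went from 25.1, 22.6 and 24.0 FPKM in nc to 15, 16.1 and 14.9 in shSYK cells (log2 fold change -0.61, SE 0.0604, limma adjusted p = 0.00054). MCM2 went from 74.0, 65.9 and 76.9 to 52.8, 52.3 and 49.6 FPKM (-0.48, SE 0.0687, limma adjusted p = 0.00212). The other MCM subunits were at between 75% and 81% of their nc means, and none of the 6 MCM genes MCM2 to MCM7 overlapped between groups. MCM7 was at 169 to 193 FPKM in nc and 137 to 146 in shSYK cells, and MCM4 at 32.9 to 33.7 and 26.2 to 28.2. The licensing gene that did not fall was GMNN, at 11.2, 15.3 and 12.7 FPKM in nc and 15.1, 17.7 and 16.1 in shSYK cells, which did not pass the test. GMNN was called higher under 8 of the alternatives, among them TPM and limma-voom. MCM10, a fork protein outside this helicase ring, was at 2.33 to 2.58 and 1.96 to 2.74 FPKM.

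E2F2 showed the largest fall of any member in HCC827. It had 1.88, 1.83 and 1.85 FPKM in nc and 0.312, 0.620 and 0.789 in shSYK cells (log2 fold change -0.87, SE 0.133, limma adjusted p = 0.00271), 31.0% of the nc mean, with 17 reads in its lowest library. E2F1 was at 33.4, 32.1 and 38.5 FPKM in nc and 26.0, 25.5 and 26.8 in shSYK cells (-0.39, SE 0.0739, limma adjusted p = 0.00589). CDC45 went from 17.9, 17.3 and 19.4 to 10.3, 12.9 and 13.5 FPKM (-0.54, SE 0.0988, limma adjusted p = 0.00523), and PCNA from 127, 144 and 138 to 101, 109 and 110 (-0.36, SE 0.0662, limma adjusted p = 0.00553). The enzymes of nucleotide supply divided. TK1, thymidine kinase, fell from 149 to 165 FPKM in nc to 117 to 137 in shSYK cells. RRM1 (20.9 to 21.4 against 20.7 to 22.2), RRM2 (22.2 to 23.0 against 21.4 to 23.8) and TYMS (12.7 to 14.1 against 12.7 to 16.1) overlapped between the groups. Of the transcription factors in the S-phase set, E2F8 (4.24 to 4.44 against 3.70 to 4.07) and MYBL2 (87.7 to 101 against 85.7 to 98.2) were not called. CCNE2 was at 1.54 to 1.67 and 1.62 to 1.84 FPKM.

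On the log2(FPKM + 1) scale, the largest rises of called G2/M genes in HCC827 were in KIF23, BUB1 and CENPF. KIF23 went from 7.22, 7.72 and 6.93 FPKM to 10.6, 10.3 and 10.6 (log2 fold change 0.47, SE 0.058, limma adjusted p = 0.00115). BUB1, a checkpoint kinase, went from 14.0, 14.2 and 12.6 to 19.8, 18.9 and 18.4 FPKM (0.46, SE 0.0631, limma adjusted p = 0.00173). CENPF had 7.63, 7.20 and 4.91 FPKM in nc and 9.39, 9.85 and 8.36 in shSYK cells (0.44, SE 0.143, limma adjusted p = 0.0427). The nc libraries of CENPF were spread wider than its shSYK libraries. Its call was lost without nc replicate 2 or without any of the 3 shSYK libraries. CCNB1 rose from 98.7, 97.7 and 86.3 to 118, 119 and 112 FPKM (0.31, SE 0.0666, limma adjusted p = 0.0104). CDK1 rose from 9.33, 9.49 and 8.74 to 10.5, 13.5 and 12.4 FPKM (0.36, SE 0.0891, limma adjusted p = 0.0159) and was no longer called without shSYK replicate 3. KIF11 had a mean of 7.01 FPKM in nc and 8.11 in shSYK cells, and its call was lost with any 1 library left out. MKI67, TOP2A and PLK1 were not called. MKI67 was at 16.2, 16.2 and 13.3 FPKM in nc and 16.7, 18.9 and 16.5 in shSYK cells (limma adjusted p = 0.154), TOP2A at 69.6, 69.1 and 68.9 against 75.5, 70.6 and 77.7 (limma adjusted p = 0.159), and PLK1 at 23.0 to 25.3 against 20.9 to 24.8 (limma adjusted p = 0.403).

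**Figure D1:**
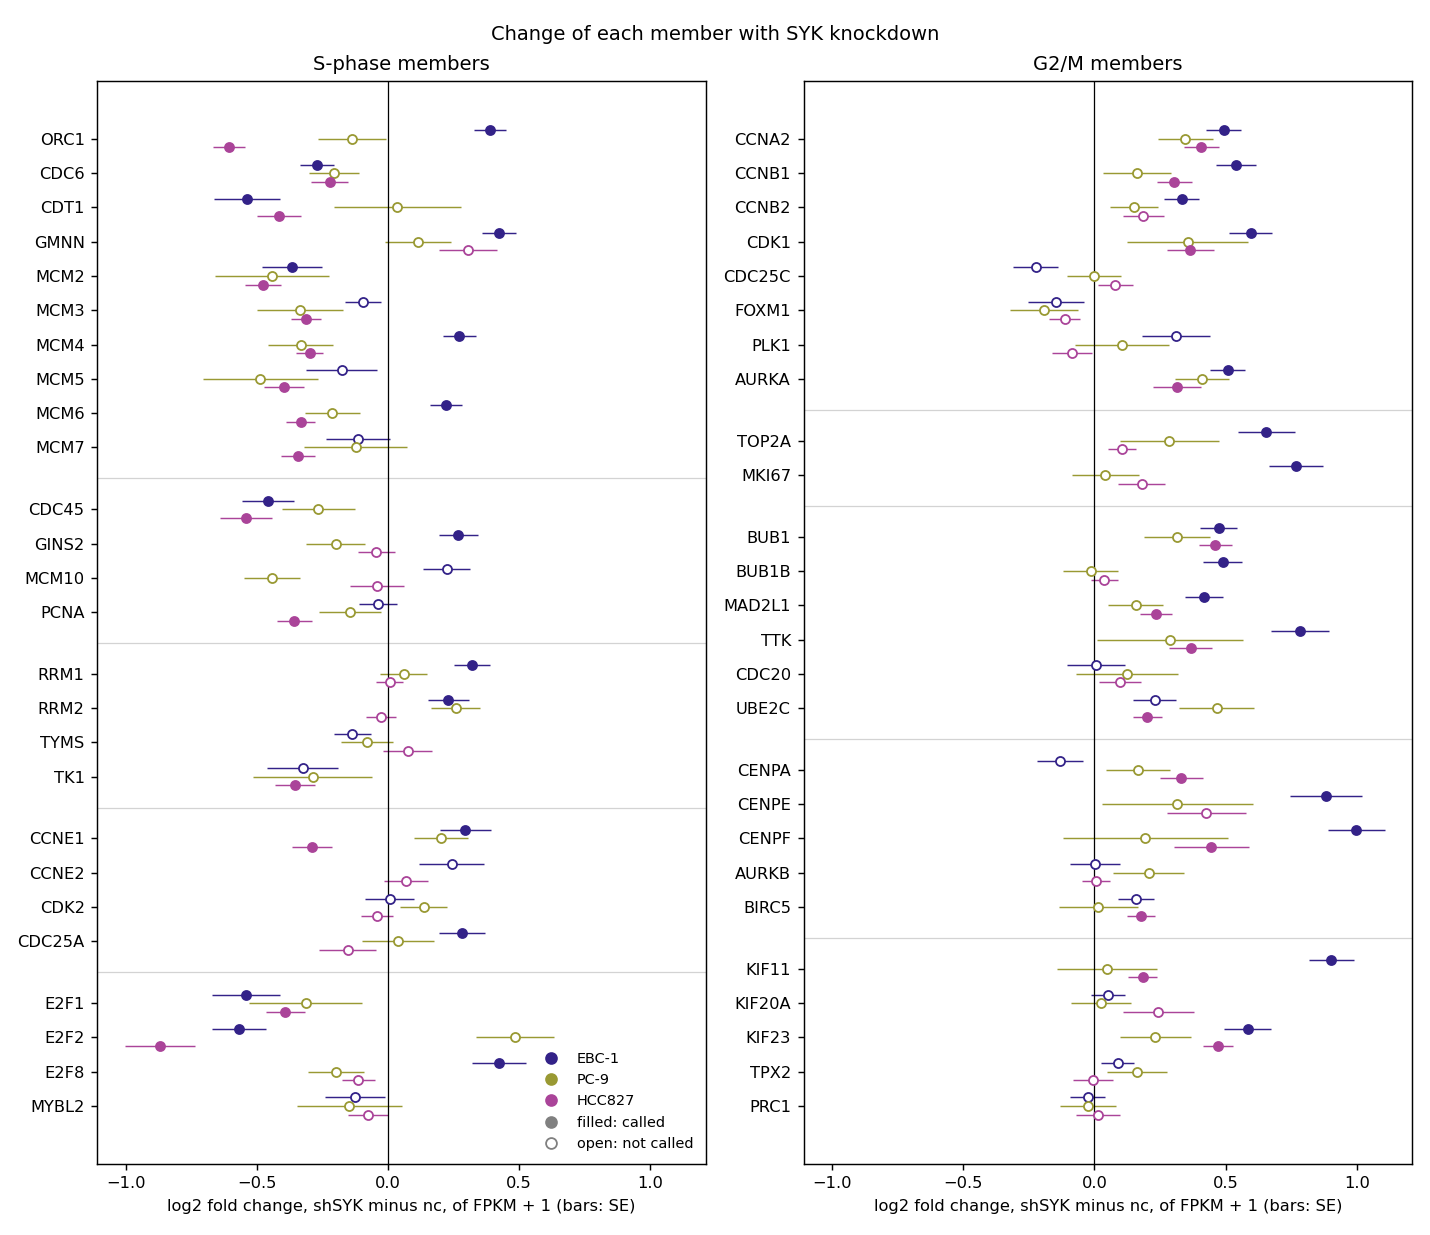
Log2 fold change of FPKM + 1 (shSYK minus nc, x axis) of each of the 52 genes, S-phase genes on the left and G2/M genes on the right, with grey lines between functional modules. Points are fitted values of 1 cell line with their standard errors and are filled where the limma adjusted p was under 0.05. The filled points of the G2/M genes are all to the right of 0, and the filled points of the S-phase genes lie on both sides in EBC-1 and to the left in HCC827.

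In PC-9, no member of either set was called by limma, where 0.678% of all genes tested rose and 1.41% fell. At an unadjusted p under 0.05 there were 4 of 25 S-phase and 4 of 26 G2/M genes, near the 15.6% of all genes tested, and limma-voom on the recovered reads also called 0. The fitted values of 22 of 26 G2/M genes were above 0 (median 0.16), and those of 17 of 25 S-phase genes were below 0 (median -0.15). The groups did not overlap for 6 G2/M and 9 S-phase genes, where 23.7% of all genes tested did not overlap. CDK1 was at 16.5, 32.8 and 26.9 FPKM in nc and 34.5, 31.2 and 29.2 in shSYK cells, and CCNB1 at 85.9, 64.2 and 74.5 against 83.0, 81.0 and 86.2. MCM2 was at 54.1, 29.2 and 37.7 FPKM in nc and 28.3, 25.4 and 32.3 in shSYK cells. E2F1 was at 24.8, 14.1 and 19.5 against 16.3, 12.1 and 17.2. In these genes nc replicate 1 lay at an end of its group, low for CDK1 and high for MCM2, E2F1 and CCNB1. The nc replicate 2 lay at the other end in each of them.

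The other anchors of PC-9 overlapped between the groups as well. MKI67 was at 12.5 to 17.2 FPKM in nc and 15.2 to 15.7 in shSYK cells, TOP2A at 30.1 to 51.8 and 46.8 to 51.4, and PLK1 at 22.8 to 37.9 and 29.3 to 33.2. PCNA was at 85.6 to 104 and 84.1 to 90.4 FPKM, and TYMS at 10.6 to 11.9 and 9.68 to 11.2. The limma adjusted p of the 9 anchors tested in PC-9 lay between 0.385 and 0.927. Without nc replicate 1, AURKA, UBE2C and E2F2 were called higher, where 2.45% of all genes tested then rose. AURKA, the Aurora kinase of the spindle poles, was at 31.0, 29.0 and 30.2 FPKM in nc and 40.4, 37.4 and 43.4 in shSYK cells. UBE2C, a ubiquitin-conjugating enzyme of the anaphase-promoting complex, was at 127, 90.1 and 108 against 143, 147 and 155. E2F2 was at 3.52, 2.19 and 2.67 against 4.5, 3.69 and 4.64. The median of the S-phase genes without nc replicate 1 was -0.04 and that of the G2/M genes 0.10. Without nc replicate 2, no member was called, where 1.32% of all genes tested rose and 2.86% fell.

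**Figure D2:**
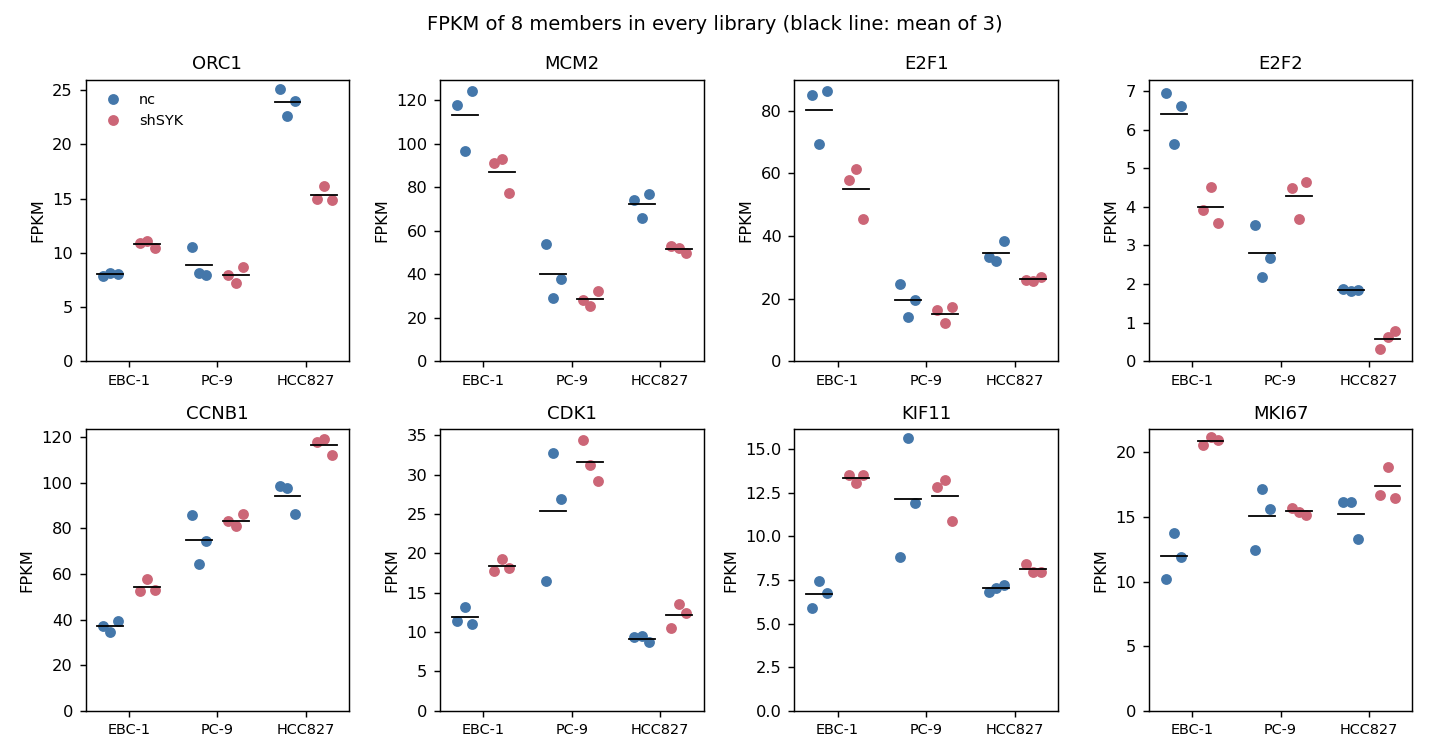
FPKM (y axis, from 0) of 4 S-phase genes (top) and 4 G2/M genes (bottom) in each of the 18 libraries, by cell line and group, with the mean of 3 libraries as a black line. ORC1 was higher in shSYK cells of EBC-1 and lower in those of HCC827. KIF11 was higher in both, by less in HCC827, and the nc libraries of PC-9 were spread widely for MCM2, E2F1 and CDK1.

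10 of 26 G2/M genes and none of the S-phase genes rose in both EBC-1 and HCC827 (CCNA2, CCNB1, CDK1, AURKA, BUB1, MAD2L1, TTK, CENPF, KIF11 and KIF23 for G2/M), where 8.64% of the genes tested in both lines rose in both. 6 of 26 S-phase genes fell in both (CDC6, CDT1, MCM2, CDC45, E2F1 and E2F2), where 8.52% of the genes did. 4 S-phase genes (ORC1, MCM4, MCM6 and CCNE1) rose in EBC-1 and fell in HCC827, where 1.69% of the genes did. Without EBC-1 nc replicate 3, shSYK replicate 1 or shSYK replicate 2, these were 2, ORC1 and MCM4. The 10 G2/M genes were 6 without HCC827 shSYK replicate 1 and between 7 and 11 with any other library left out, and the 6 S-phase genes that fell in both were between 4 and 7. With the variance taken over all 18 libraries, the G2/M genes that rose in both were 6. No member was called in the same direction in all 3 lines. By sign alone, 19 G2/M genes were above 0 in each line and 1, FOXM1, was below, and 10 S-phase genes were below 0 in each line (among them MCM2, MCM3, MCM5 and MCM7) and 2, GMNN and RRM1, were above.

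The difference of effects between lines was tested in a fit of all 18 libraries. Between EBC-1 and HCC827, 6 of 26 S-phase and 4 of 26 G2/M genes differed, where 20.7% of all genes tested differed. The S-phase genes were ORC1, MCM4, MCM6, RRM1, CCNE1 and E2F8, each with the higher value in EBC-1. For ORC1 the difference was 1.0 on the log2 scale (SE 0.125, limma adjusted p = 4.42e-05). The G2/M genes were MKI67 (0.59), BUB1B (0.45) and KIF11 (0.72), with the larger value in EBC-1, and CENPA (-0.46), a histone of centromeres, with the larger value in HCC827. Between EBC-1 and PC-9, 8 of 25 S-phase and 3 of 26 G2/M genes differed, where 19.8% of all genes tested did. Of these, E2F2 was -0.57 in EBC-1 and 0.48 in PC-9, a difference of -1.05 (SE 0.188, limma adjusted p = 0.00112). Between PC-9 and HCC827, ORC1, CCNE1 and E2F2 differed and no G2/M gene did at an adjusted or an unadjusted p under 0.05, where 5.77% of all genes tested differed. Each line's nc libraries entered 2 of these 3 differences. Leaving out PC-9 nc replicate 1 raised the number of members that differed between EBC-1 and PC-9 from 11 to 21 of 51, and between PC-9 and HCC827 from 3 to 7 of 51. The share over all genes tested rose likewise, to 39.2% and 19.5%.

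The S-phase genes were set against the G2/M genes within each library as the mean log2(FPKM + 1) of one set minus that of the other. In EBC-1, this index was 0.87, 0.69 and 0.77 in nc and 0.42, 0.42 and 0.35 in shSYK cells, a difference of -0.38 with an SD within groups of 0.0683. In HCC827, it was 0.04, 0.05 and 0.25 in nc and -0.40, -0.32 and -0.30 in shSYK cells, a difference of -0.45 with an SD of 0.0907. The groups of both lines did not overlap. In PC-9, it was -0.17, -0.66 and -0.46 in nc and -0.71, -0.78 and -0.64 in shSYK cells, a difference of -0.28 with an SD of 0.182, and the groups overlapped. Without PC-9 nc replicate 1 this difference was -0.15. The value of PC-9 nc replicate 2, -0.66, lay among the shSYK values. Without that library the difference was larger, and the groups did not overlap.

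Different sets carried the index in the lines. In EBC-1, the S-phase mean differed by -0.01 and the G2/M mean by 0.37. In HCC827, the S-phase mean differed by -0.24 and the G2/M mean by 0.21, and neither overlapped between groups. In PC-9, the G2/M mean was 4.41, 4.52 and 4.52 in nc and 4.66, 4.64 and 4.65 in shSYK cells, with no overlap, and the S-phase mean was 4.24, 3.86 and 4.06 against 3.96, 3.86 and 4.01. The index is a description with no test, since the genes were chosen with earlier results of these data known.

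**Figure D3:**
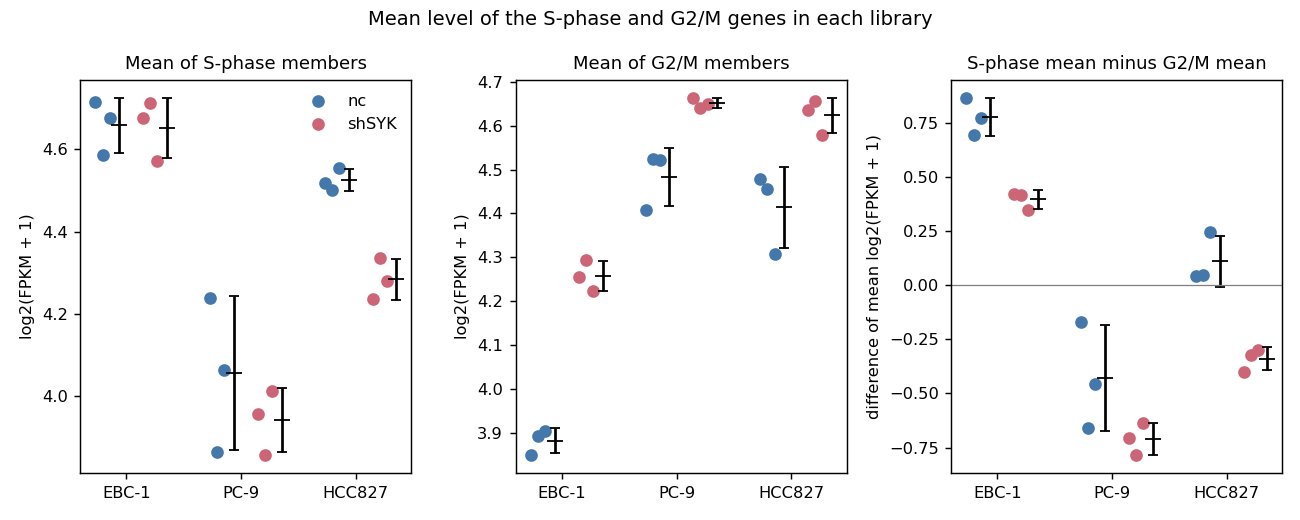
Mean log2(FPKM + 1) of the S-phase genes, of the G2/M genes, and the difference of the 2 means (y axes), in each library by cell line and group, with the mean and SD of 3 libraries in black. The difference is lower in all shSYK than in all nc libraries of EBC-1 and HCC827, and PC-9 nc replicate 1, its highest nc point, stands above the other PC-9 libraries.

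GC content moved with these results. The transcripts of the G2/M genes had a median GC content of 45.5% and those of the S-phase genes 51.1%. Over all genes tested, the Spearman correlation of the log2 fold change with GC content was -0.54 for EBC-1, -0.32 for PC-9 and -0.42 for HCC827. Over the G2/M genes it was -0.73, -0.47 and -0.62, and over the S-phase genes -0.65, -0.04 and -0.61. These correlations run across genes of the same libraries, which are not independent replicates. CDK1 (37.0%) and KIF11 (39.7%) are among the genes low in GC, and MCM2 (57.4%) and E2F1 (61.6%) among those high in GC. With the trend on GC content removed within each library, which was chosen after the data had been seen, 19 G2/M genes rose in EBC-1 (median 0.27), 14 of them among the 15 above, and 8 rose in HCC827 (median 0.18), 7 of them among the 13 above. CCNB1, CDK1, CENPF, KIF11, MAD2L1 and TTK were then not called in HCC827. The G2/M genes that rose in both lines were then 7. Of the 10 named above as rising in both, only AURKA, BUB1, CCNA2 and KIF23 were among them. The S-phase genes that fell in HCC827 were then 14, 13 of them among the 15 above, and 7 S-phase genes rose and 5 fell in EBC-1. Of all genes tested, 22.1% then rose and 20.5% fell in EBC-1, and 13.2% rose and 17.3% fell in HCC827. The difference of the index was then -0.24 for EBC-1, -0.24 for PC-9 and -0.37 for HCC827. What part of the changes goes with GC content beyond this was not tested.

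**Figure D4:**
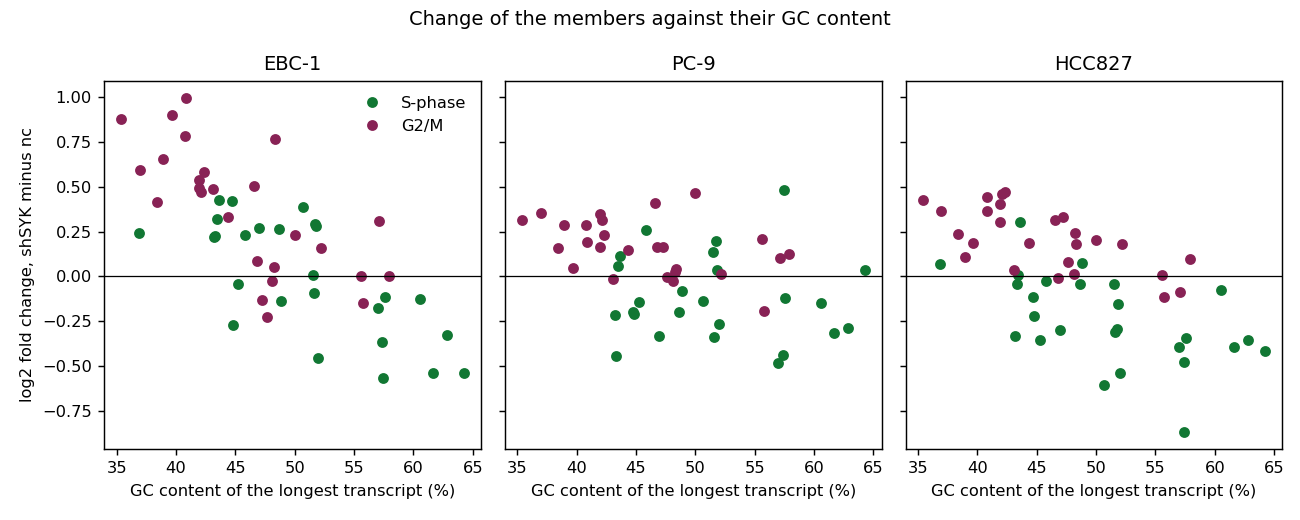
Log2 fold change (shSYK minus nc, y axis) of the members against the GC content of their longest transcript in percent (x axis), for each cell line, S-phase genes in green and G2/M genes in purple. Values are lower to the right in EBC-1 and HCC827, with Spearman correlations between -0.61 and -0.73 in either set, and the S-phase genes of PC-9 show little slope (-0.04).

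Promoter elements were set beside the changes as a description. In HCC827, 10 of the 14 S-phase genes with an E2F site fell (median log2 fold change -0.34) and 3 of the 7 without one (median -0.08). In EBC-1, 5 of the 14 rose and 5 fell (median -0.105), and of the 7 without an E2F site 3 rose and 1 fell (median 0.223). Of the 14 G2/M genes with a CHR, 10 rose in EBC-1 (median 0.48) and 7 in HCC827 (median 0.19). Of the 6 G2/M genes without one, 3 rose in EBC-1 (median 0.27) and 2 in HCC827 (median 0.27). CDC6, CDT1, MCM2, E2F1 and E2F2, with an E2F site, fell in both lines, and so did CDC45, without one in this window. ORC1 and MCM6, with E2F sites, rose in EBC-1 and fell in HCC827. In PC-9, where no member was called, the median of the S-phase genes was -0.140 with and -0.148 without an E2F site. That of the G2/M genes was 0.153 with and 0.185 without a CHR.

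Further genes of the same pathways were counted from lists of other replication and mitosis genes, to be read against the shares of all genes tested that rose and fell (23.1% up and 21.6% down for EBC-1, 17.2% up and 20.7% down for HCC827). Of 37 other replication genes, 13 rose and 3 fell in EBC-1, and 3 rose and 10 fell in HCC827. DBF4, the activating subunit of the CDC7 kinase that fires origins, had the largest rise among called genes in EBC-1 (4.82 ± 0.921 FPKM in nc and 8.92 ± 0.302 in shSYK cells, SD, n = 3; limma adjusted p = 0.00181). LIG1, the ligase that joins Okazaki fragments, had the largest fall among called genes there (10.4 ± 0.577 against 8.14 ± 1.05; limma adjusted p = 0.0309), and that call was lost under 9 of 17 alternatives. In HCC827, POLA1, the catalytic subunit of DNA polymerase alpha, rose (7.66 ± 0.492 against 10.1 ± 0.671 FPKM; limma adjusted p = 0.00661), and ASF1B, a histone chaperone, fell (45.2 ± 2.74 against 29.0 ± 0.892; limma adjusted p = 0.00047). Of 38 other mitosis genes, 20 rose and 4 fell in EBC-1, and 18 rose and 1 fell in HCC827. KIF20B, a kinesin of cytokinesis, rose in EBC-1 (2.06 ± 0.62 against 5.48 ± 0.316 FPKM; limma adjusted p = 0.00114), and ESPL1, the separase that cleaves cohesin, fell (10.1 ± 0.519 against 7.06 ± 1.21; limma adjusted p = 0.0126). In HCC827, CKS2, a subunit that binds CDK1, rose (158 ± 15.2 against 238 ± 11.1 FPKM; limma adjusted p = 0.00167). CDC25B, a phosphatase that starts mitotic entry, was the 1 gene of this list that fell in HCC827 (41.5 ± 2.13 against 27.6 ± 0.759; limma adjusted p = 0.000544).

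Regulators that act above these genes were counted as well, and several of their counts are near these shares of all genes. Of 13 tested genes of the RB, E2F and MuvB families, 5 rose and 2 fell in EBC-1, and 2 rose and none fell in HCC827. RB1, the retinoblastoma protein that holds E2F, rose in EBC-1 (3.17 ± 0.523 FPKM in nc and 5.60 ± 0.336 in shSYK cells; limma adjusted p = 0.00225), and LIN52, a MuvB subunit, fell (2.01 ± 0.115 against 1.26 ± 0.305; limma adjusted p = 0.0261), a call lost under 7 of 16 alternatives. TFDP1, the partner with which E2F proteins bind DNA, rose in HCC827 (31.0 ± 1.31 against 38.5 ± 1.03; limma adjusted p = 0.00464). Of 13 checkpoint and degradation genes, 5 rose and 1 fell in EBC-1, and 1 rose and 4 fell in HCC827. ATR, the kinase that senses replication stress, rose in EBC-1 (2.48 ± 0.434 against 4.64 ± 0.404 FPKM; limma adjusted p = 0.00238). FZR1, an activator of the anaphase-promoting complex in G1, fell there (26.0 ± 2.81 against 20.4 ± 1.88; limma adjusted p = 0.031). That call was lost under 9 of 17 alternatives, with log2 fold changes from -0.42 to -0.05. In HCC827, ANAPC2, a catalytic subunit of that complex, fell (22.3 ± 1.29 against 14.9 ± 0.951; limma adjusted p = 0.00115), and CDC16, another of its subunits, rose (6.40 ± 0.313 against 7.74 ± 0.112; limma adjusted p = 0.0148). In PC-9, limma called 0 genes of these 4 lists, and between 0 and 4 genes of each list had an unadjusted p under 0.05.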

How the data were processed

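RNA-seq of 18 libraries (EBC-1, PC-9 and HCC827, nc and shSYK, 3 each) was analysed. The authors deposited FPKM per Ensembl gene in a table for each cell line, computed from reads, a gene length and a denominator for each library. The submitters' processing notes name CASAVA and HISAT2, and GRCh37, GRCh38, hg19 and hg38. The gene positions in the tables are those of GRCh38. The counting program and its strand setting are not given in the sources used here. FPKM times gene length gave whole multiples in 100% of values above 0 (within 3.04e-05), so reads per gene were recovered for depth (7920099 to 15729103 a library) and for limma-voom. Precision from reads covers counting error only.

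Within each line, shSYK was compared with nc in R 4.3.3 with limma 3.58.1 (lmFit, eBayes with a variance trend) on log2(FPKM + 1), keeping genes whose FPKM averaged 1 or more in the line, at a Benjamini-Hochberg adjusted p under 0.05. Effects were compared between lines as differences of contrasts in a fit of all 18 libraries. GC content came from the longest transcript in GENCODE v44. Promoters and their motifs were read with Python 3.11.15, and figures drawn with matplotlib 3.10.9. Genes with full statistics were 10 anchors (MKI67, PCNA, MCM2, CCNE2, E2F1, TYMS, CCNB1, CDK1, PLK1 and TOP2A), the 3 largest rises and falls of called genes without overlap in each set and line, members called alike in all 3 lines, and the largest rise and fall in each other list; other members are given by FPKM. AURKA, UBE2C and E2F2 in PC-9, and the genes named for differences between lines, were singled out after their values were seen. The members and lists were chosen with earlier results of these data known. Alternatives were a pseudocount of 0.1, no filter or a mean FPKM of 5, TPM and quantile scaling, no variance trend, a variance over 18 libraries, a replicate block, each library left out, limma-voom, and removal of trends on gene length and on GC content (the last added after seeing the data).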

Additional observations from a re-analysis of the deposited data

Results flagged for a closer look

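Of the members whose effects differed between cell lines in the fit of all 18 libraries, 5 with opposite or unequal values are given here. They are not the only ones. MCM10 differed by 0.67 for EBC-1 minus PC-9, and CCNE1 by 0.59 for EBC-1 minus HCC827. Of all genes tested, 19.8% differed for EBC-1 minus PC-9, 20.7% for EBC-1 minus HCC827 and 5.77% for PC-9 minus HCC827. The difference of log2 fold changes of ORC1 was 0.53 for EBC-1 minus PC-9, 1.0 for EBC-1 minus HCC827 and 0.47 for PC-9 minus HCC827, with 0.39, -0.14 and -0.61 in EBC-1, PC-9 and HCC827. For E2F2 it was -1.05 for EBC-1 minus PC-9 and 1.35 for PC-9 minus HCC827, with -0.57, 0.48 and -0.87 in the lines. For E2F8 it was 0.62 for EBC-1 minus PC-9 and 0.54 for EBC-1 minus HCC827. For MKI67 the differences were 0.73 and 0.59, and for KIF11 0.85 and 0.72, in the same order. The cause of these differences was not tested.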

How the results depend on the processing

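MCM2, LIG1 and FZR1 in EBC-1 and CENPF in HCC827 kept their direction but lost their call under 9 of 17 alternatives, and LIN52 in EBC-1 under 7 of 16. KIF11 in HCC827 lost its call with any 1 library left out. That call was also lost with the GC trend removed, with a replicate block and with the variance over all 18 libraries. In EBC-1, the median of the S-phase genes was -0.10 with the filter raised to 5, 0.11 with TPM, 0.12 with quantile normalization and 0.059 with the GC trend removed. The median of the G2/M genes there was 0.49 with a pseudocount of 0.1, 0.56 with TPM, 0.27 with the GC trend removed and 0.49 with limma-voom. The S-phase minus G2/M difference in EBC-1 was -0.24 with the GC trend removed and -0.46 with medians over members. CDC25C was called lower in EBC-1 with quantile normalization and with the variance over all 18 libraries. In HCC827, the median of the S-phase genes was -0.24 with TPM, -0.25 with quantile normalization and -0.21 with the GC trend removed, and that of the G2/M genes 0.27 with quantile normalization. 8 G2/M genes rose there with the GC trend removed and 7 with the variance over all 18 libraries, where 13.2% of all genes tested rose under either setting. GMNN, 1 S-phase gene, was called higher in HCC827 with the filter at 5, TPM, quantile normalization, removal of the gene length trend, limma-voom or the 18-library variance. In PC-9, 1 S-phase gene was called higher (E2F2), 1 lower (MCM10) and 2 G2/M genes higher (AURKA and UBE2C) with the GC trend removed (7.49% of all genes tested were then called). In that line 1 G2/M gene (UBE2C) was called higher with TPM or quantile normalization (4.06% and 4.18% of all genes tested called). The 18-library variance gave 2 S-phase genes higher there (E2F2 and RRM2), 2 lower (MCM4 and MCM10) and 4 G2/M genes higher (AURKA, BUB1, CCNA2 and UBE2C), with 12.5% of all genes tested called. With TPM, 17 members differed between EBC-1 and HCC827 (23.8% of all genes tested). PCNA in EBC-1 was 0.090 with TPM, 0.11 with quantile normalization and 0.055 with the gene length trend removed, and CCNE2 was -0.12 in EBC-1 and -0.11 in HCC827 with the GC trend removed. With that removal, PLK1 in HCC827 was 0.059 and TOP2A -0.061. The cause of these shifts was not tested.

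With each library left out in turn, the S-phase genes that rose in EBC-1 numbered 5 to 9 and the G2/M genes that rose in HCC827 7 to 10, and 0 to 1 S-phase genes rose in HCC827. Of all genes tested, 15.7% to 26.3% then rose in EBC-1 and 12.1% to 14.1% in HCC827. In PC-9, 0 to 1 S-phase and 0 to 2 G2/M genes rose (0.0413% to 2.45% of all genes tested), and the G2/M median was 0.10 to 0.18. The members that differed were 10 to 21 for EBC-1 minus PC-9 and 1 to 7 for PC-9 minus HCC827. 4 values near 0 changed sign: PCNA in EBC-1 (-0.084 to 0.012, above 0 without nc replicate 1), MKI67 in PC-9 (-0.081 without nc replicate 1 to 0.14), PLK1 in PC-9 (-0.063 without nc replicate 2 to 0.29) and TYMS in HCC827 (-0.026 without shSYK replicate 2 to 0.14).

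Replicates of nc and shSYK share numbers. The correlation of same-numbered libraries' deviations from their group means lay between -0.219 and 0.325. It was not over 0.1 for every pair of any line. Between unlike numbers it reached 0.383, for PC-9 nc replicate 1 and shSYK replicate 3. With 3 libraries per group, these values cannot settle whether libraries of the same number were handled together. Not every library correlated best with its own number. With a replicate block, 4 of 26 S-phase genes rose and 4 fell in EBC-1, and 1 rose and 15 fell in HCC827. ORC1 alone rose in EBC-1 and fell in HCC827, and 15 and 11 of 26 G2/M genes rose in the 2 lines. Of all genes tested, about 18% then rose and 17% fell in EBC-1, and about 16% rose and 19% fell in HCC827. The S-phase counts of EBC-1 were thus not above the shares of all genes. Counting precision was lowest for CCNE2 in PC-9 and E2F2 in HCC827, with 7 and 17 reads in their lowest libraries.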
